A study of Oryctolagus cuniculus with 4 samples.

Results

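Mast cell genes were examined in single-cell RNA sequencing libraries of rabbit ear hypertrophic scar (HS) tissue. The genes KIT, CPA3, HDC, MS4A2, HPGDS and TPSAB1 were listed by name, and those of the 6 whose symbol stood in the deposited table were taken. This gave 4 of the 13913 genes there, namely KIT (ENSOCUG00000007086), HDC (ENSOCUG00000016840), MS4A2 (ENSOCUG00000009077) and HPGDS (ENSOCUG00000017300). The granule proteases CPA3 and TPSAB1 were not analysed here. The HS group held 2 untreated scars. The drug-loaded MNs group held 2 scars that received microneedles (MNs) weekly for 3 weeks, with tips that stay in the skin and release a derivative of 5-fluorouracil. All rabbits were female and of WT genotype, the strain is not given in the sources used here, and the tissue was harvested 1 week after the last application. The methods state an age in weeks for the rabbits when they were bought, not at harvest. Each library came from the ventral epidermis and dermis of 1 scar, after lysis of red blood cells. No library of drug-free MNs was analysed here, so the needles and the drug cannot be told apart. The labels do not say whether the 2 scars of a group came from separate rabbits, so the p-values measure the spread between these scars.

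Mast cells are immune cells of the dermis that settle around vessels and nerves and persist for long periods. They survive on stem cell factor, which binds the receptor tyrosine kinase KIT, and they are armed by IgE bound to the high-affinity receptor, of which FCER1A is the alpha chain and MS4A2 the beta chain. When triggered they release histamine, which the enzyme HDC makes from histidine, together with proteases stored on heparin-bearing serglycin, and they then make prostaglandin D2 with HPGDS and leukotrienes with ALOX5. In skin wounds and scars they are known as neighbours of fibroblasts, and they are sparse compared with keratinocytes and fibroblasts.

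The deposited table gave 1 relative value per gene and library. 1 unit is 1 part in 1000000 of what a library holds. Fold changes were taken as differences of log2(units + 1), a scale that makes the change of low genes look smaller. Sequencing depth was unknown, because every library was scaled to the same total. Keratinocyte and fibroblast genes were present at high levels in all 4 libraries, as the labelled tissue would have them: KRT10 lay between 24607 and 45325 units and COL1A2 between 12946 and 26648 units. Mitochondrially encoded genes took 2.75% and 2.80% of the HS libraries and 4.37% and 4.58% of the drug-loaded MNs libraries. Over the 9348 genes tested, the median log2 fold change was 0.12 (-0.01 under median ratio scaling). The fold changes below are not corrected for this shift, and limma tested each against 0. In a pool of cells, fewer cells of a type and less RNA per cell cannot be told apart.

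The design set treated against untreated scars to find RNA changes that go with the treatment. None of the 4 mast cell genes passed the threshold, an adjusted p of 0.05 in limma over all tested genes. Among all tested genes, 0.0428% did. At an unadjusted p under 0.05, 1 of the 4 was higher (KIT), where 7.26% of all genes were higher, and 0 were lower, where 1.39% were. KIT no longer met that level under median ratio scaling or quantile normalization. Higher values made up 83.9% of all calls at this unadjusted level, against 64.1% when libraries were scaled by median ratios and 58.9% after quantile normalization. The groups did not overlap in KIT and HPGDS, both with higher values in drug-loaded MNs, against 26.6% of all genes. None of the 4 was lower without overlap, against 11.2% of all genes. The median log2 fold change of the 4 genes was 0.54, and it was -0.06 without HS replicate 2 or without drug-loaded MNs replicate 2. With HS replicate 1 left out the median was 0.98, and with drug-loaded MNs replicate 1 left out it was 0.89.

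**Figure D1:**
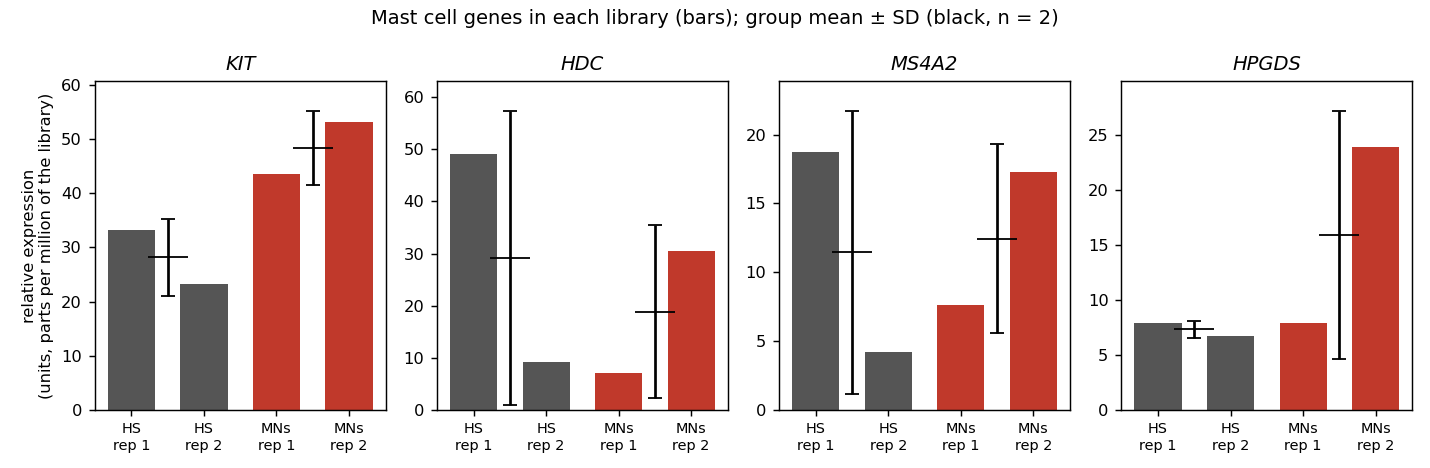
Relative expression of KIT, HDC, MS4A2 and HPGDS (y axis, in units, each panel on its own scale from 0) in each of the 4 libraries (x axis, grey bars HS, red bars drug-loaded MNs), with the group mean ± SD in black (n = 2). Only KIT has similar bars within each group, HDC and MS4A2 are high in HS replicate 1 and drug-loaded MNs replicate 2, and HPGDS is high in drug-loaded MNs replicate 2 alone.

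KIT, the receptor that mast cells need to survive, stood at 33.2 and 23.2 units in HS replicates 1 and 2 and at 43.5 and 53.2 units in drug-loaded MNs replicates 1 and 2. Both treated libraries lay above both untreated ones, with 1.41-fold between the HS libraries and 1.22-fold between the treated ones on the log2(units + 1) scale. The group means were 28.2 ± 7.08 and 48.4 ± 6.88 units (SD, n = 2 each). On the log2 scale the difference was 0.77 (SE 0.27, 95% interval 0.14 to 1.40), with an unadjusted p of 0.0225 and an adjusted p of 0.447 in limma. With median ratio scaling the unadjusted p in limma became 0.0682, and after quantile normalization 0.0648. Leaving out replicate 2 of HS gave 0.0815, and leaving out replicate 2 of drug-loaded MNs gave 0.144. With 1 library left out the log2 difference ran from 0.52 to 1.02.

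Melanocytes also carry KIT, and 5 of their genes were looked at beside it. TYR, TYRP1, DCT, PMEL and MLANA, which make or carry pigment, summed to 333 and 137 units in HS and to 305 and 142 units in drug-loaded MNs. Their sum was thus high in the replicates numbered 1 of both groups. Both the sum and KIT were lowest in HS replicate 2, and KIT was highest in drug-loaded MNs replicate 2, where the sum was 142 units. TYR, the rate-limiting enzyme of pigment synthesis, stood at 20.1, 6.12, 16.8 and 8.02 units in HS replicates 1 and 2 and drug-loaded MNs replicates 1 and 2. The log2 ratio of KIT to MLANA was -0.88 and 0.23 in the HS libraries, and it was -0.25 and 0.97 in the treated ones, so the groups overlapped in it. The log2 ratio of KIT to TYRP1 was -1.88 and -1.22 in the HS libraries, and it was -1.21 and 0.14 in the treated ones. In that ratio the groups narrowly did not overlap. How much of the KIT signal came from melanocytes was not tested.

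MS4A2, the beta chain that strengthens signalling from the IgE receptor, stood at 18.7 and 4.17 units in HS and at 7.58 and 17.3 units in drug-loaded MNs. The groups overlapped fully, with HS replicate 1 highest and HS replicate 2 lowest. The means of 11.4 ± 10.3 and 12.4 ± 6.88 units (SD, n = 2 each) gave a log2 fold change of 0.31 (SE 0.63, 95% interval -1.16 to 1.79, limma adjusted p 0.934). It turned to -0.65 when HS replicate 2 was left out and to -0.23 when drug-loaded MNs replicate 2 was. FCER1A, the chain of the same receptor that binds IgE, was not among the members, and it stood at 46.0 and 21.2 units in HS and at 26.1 and 79.8 units in drug-loaded MNs. It was likewise higher in HS replicate 1 than in HS replicate 2 and higher in drug-loaded MNs replicate 2 than in drug-loaded MNs replicate 1. The difference was 0.53 on the log2 scale (SE 0.54, adjusted p 0.861 in limma), and it was -0.26 when drug-loaded MNs replicate 2 was left out and -0.01 when HS replicate 2 was.

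HDC, the only enzyme that makes histamine, had the widest spread of the 4 genes. It stood at 49.1 and 9.18 units in HS and at 7.14 and 30.6 units in drug-loaded MNs. Each group thus held 1 high and 1 low library, and the high libraries were the same as for MS4A2. The means were 29.1 ± 28.2 and 18.9 ± 16.6 units (SD, n = 2 each). On the log2 scale the difference was -0.49 (SE 0.82, 95% interval -2.41 to 1.42, limma adjusted p 0.914). Its direction turned with the library left out. With HS replicate 1 set aside it was 0.66, and with drug-loaded MNs replicate 1 set aside 0.48. With the other library of a group set aside it was -1.64 (HS) or -1.47 (drug-loaded MNs). None of these 4 values passed, with limma adjusted p-values between 0.222 and 1.

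Markers of other granulocytes were read beside HDC, MS4A2 and FCER1A, which basophils also express. Of 7 basophil and eosinophil genes, 4 were analysed (EPX, PRG3, CCR3 and CEBPE), and none of them reached 1 unit on average. Their summed level lay between 0.139 and 0.652 units. The list holds markers of both cell types together, so these values do not show whether basophils were present. The part of basophils in HDC, MS4A2 and FCER1A was not tested. Neutrophils can express HDC too. S100A8, S100A9 and MPO, of 5 neutrophil genes listed, summed to 226 and 17.7 units in HS and to 20.01 and 53.1 units in drug-loaded MNs, so that their order over the libraries had HS replicate 1 and drug-loaded MNs replicate 2 on top as HDC did. Almost all of that sum came from S100A8 and S100A9, which stressed keratinocytes also make. MPO, an enzyme of neutrophil granules, stayed between 0.270 and 0.805 units, below the filter. The part of these cells in the HDC signal was not tested.

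HPGDS, which turns prostaglandin H2 into prostaglandin D2, stood at 7.84 and 6.74 units in HS and at 7.92 and 23.9 units in drug-loaded MNs. Only drug-loaded MNs replicate 2 stood apart. The groups did not overlap, but the lower treated library and the higher untreated one were nearly equal. The means were 7.29 ± 0.780 and 15.9 ± 11.3 units (SD, n = 2 each), and the log2 fold change was 0.85 (SE 0.47, 95% interval -0.24 to 1.94, limma adjusted p 0.711). Leaving out drug-loaded MNs replicate 2 gave 0.11. Leaving out the other treated library gave 1.59, with an adjusted p of 0.0929 in limma.

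Some tissue macrophages express HPGDS as well. The 8 macrophage genes analysed, of 10 listed, summed to 120 and 130 units in HS and to 286 and 284 units in drug-loaded MNs. All 7 that were tested had higher values in drug-loaded MNs without overlap (against 26.6% of all genes), with a median log2 fold change of 1.22. None passed in limma over all genes. With the replicate number as a block 5 of the 7 did, as did 241 of all 9348 tested genes, and these numbers are not known to be a pairing. Among the 7, AIF1 had a log2 fold change of 1.22, CD163 1.40, MRC1 1.03 and C1QB 1.79 (limma adjusted p 0.264 to 0.336 without the block). C1QB averaged 0.863 units in HS and passed the filter only through the treated libraries. HPGDS differed 2.79-fold between the treated libraries on the log2(units + 1) scale. The log2 ratio of HPGDS to CSF1R, the macrophage growth factor receptor, was -1.38 and -1.51 in the HS libraries, and it was -2.18 and -0.58 in the treated ones. The part of macrophages in the HPGDS signal was not tested.

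**Figure D2:**
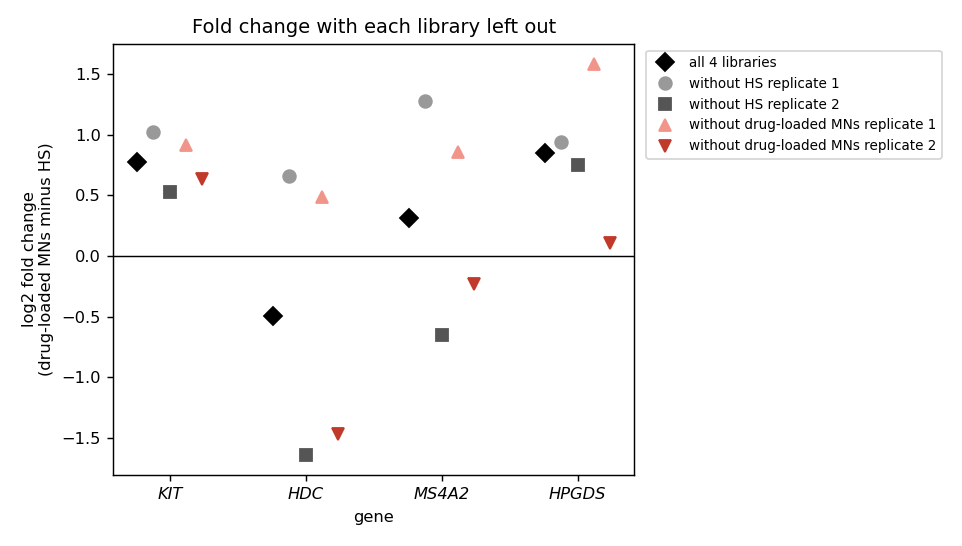
Log2 fold change of drug-loaded MNs against HS (y axis, log2(units + 1) scale) for the 4 mast cell genes (x axis), with all 4 libraries (black diamonds) and with each library left out in turn (other symbols). KIT stays between 0.52 and 1.02, HDC and MS4A2 fall on both sides of 0, and HPGDS runs from 0.11 to 1.59.

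Replicates differed widely in HDC and MS4A2, and in HPGDS only in the treated group. HDC differed 4.92-fold between the HS libraries and 3.88-fold between the drug-loaded MNs libraries, on the log2(units + 1) scale. In the HS pair 99.3% of tested genes differed less, and in the drug-loaded MNs pair 99.4% did. MS4A2 differed 3.81-fold in HS and 2.13-fold in drug-loaded MNs, with 99.0% and 96.5% of genes differing less. HPGDS differed 1.14-fold in HS and 2.79-fold in drug-loaded MNs, with 29.6% and 98.4% of genes differing less. For KIT 68.5% of genes differed less in HS and 58.2% in drug-loaded MNs. The median gene differed by 0.33 in HS and by 0.23 in drug-loaded MNs on the log2 scale.

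Ratios within a library do not depend on how libraries are scaled, and only their change between libraries is read here, since whether the levels were corrected for gene length is not given in the sources used here. The log2 ratio of HDC to KIT was 0.57 and -1.34 in the HS libraries, and it was -2.61 and -0.80 in the treated ones. It spanned 9.02-fold over the 4 libraries. The ratio of MS4A2 to KIT spanned 3.24-fold, from -0.83 in HS replicate 1 to -2.52 in drug-loaded MNs replicate 1 on the log2 scale. For the IgE receptor chains, the ratio of FCER1A to MS4A2 spanned 2.07-fold (log2 values 1.30 and 2.35 in HS, 1.78 and 2.20 in drug-loaded MNs). The ratio of HDC to MS4A2 spanned 2.78-fold and that of HPGDS to MS4A2 3.86-fold.

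The summed level of the 4 genes was 109 and 43.2 units in HS and 66.1 and 125 units in drug-loaded MNs. Each group again held a high and a low library, 2.52-fold apart in HS and 1.89-fold apart in drug-loaded MNs. Without KIT the sum was 75.7 and 20.1 units in HS and 22.6 and 71.7 units in drug-loaded MNs. The sum is given as a description, with no test.

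The wider mast cell pathway was then described with 7 lists of other genes. Of 64 genes listed, 36 were analysed and 30 passed the filter of 1 unit on average. Of these 30, 23 had higher and 7 lower values in drug-loaded MNs, where 64.6% of all tested genes had higher values. Their median was 0.42 on the log2 scale. None passed in limma over all genes. At an unadjusted p under 0.05, 6 were higher (20%, against 7.26% of all genes) and 0 lower. The first count was 3 under median ratio scaling and 2 without drug-loaded MNs replicate 2. The groups did not overlap in 12, all higher (40%, against 26.6%). SYK and PTGDR, counted among the 6 and the 12, averaged 0.605 and 0.937 units in HS. They passed the filter only through the treated libraries, which favoured a higher value for them. The same holds for ADORA3, counted among the 23, which averaged 0.905 units in HS and 1.11 units in drug-loaded MNs.

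**Figure D3:**
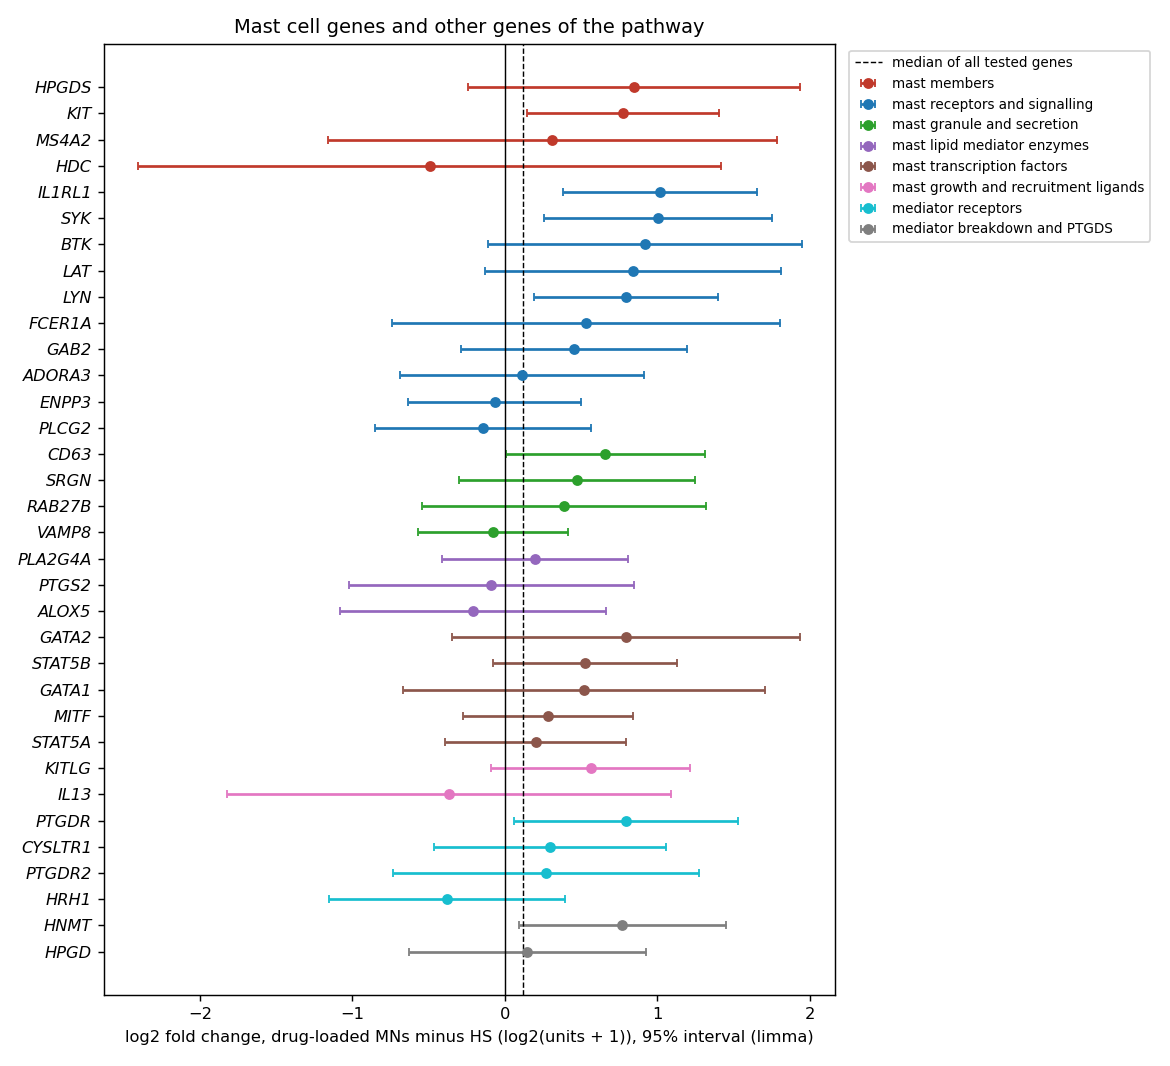
Log2 fold change of drug-loaded MNs against HS with its 95% interval from limma (x axis, log2(units + 1) scale) for the 4 mast cell genes and the 30 other tested genes of the pathway (y axis), coloured by list, with a solid line at 0 and a dashed line at the median of all tested genes, 0.12. Among these genes the intervals are widest for HDC, MS4A2 and IL13, and those that lie above 0 belong to KIT and to 6 of the other genes.

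Among receptors and signalling proteins, 8 of 10 tested genes had higher values (7 after quantile normalization), with a median of 0.66. The 8 include ADORA3, which passed the filter only through the treated libraries. IL1RL1, the receptor through which IL33 activates mast cells, stood at 5.91 and 5.66 units in HS and at 13.9 and 11.6 units in drug-loaded MNs. Its groups were well separated, and its log2 fold change was 1.02 (SE 0.27, unadjusted p 0.00646, limma adjusted p 0.344). Which cells gave the IL1RL1 signal was not tested. The kinases LYN and SYK pass on the signal of the IgE receptor and act in other leukocytes too. LYN stood at 13.3 and 14.5 units in HS and at 22.1 and 27.9 units in drug-loaded MNs, a log2 difference of 0.80 (adjusted p 0.420 in limma). SYK lay at 0.533 and 0.677 units in HS and at 1.74 and 2.77 units in drug-loaded MNs, a log2 difference of 1.004 (adjusted p 0.417 in limma). IL1RL1, LYN and SYK belonged to the 5 of 10 tested genes in this list with both treated libraries above both untreated ones. Among all tested genes, 26.6% had that pattern. In FCER1A and MS4A2 the libraries of the 2 groups overlapped. SYK passed the filter only through the treated libraries, which favoured a higher value for it. FCER1G, the chain that the IgE receptor shares with other receptors, was not analysed here.

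Among granule and secretion genes, 3 of 4 tested genes had higher values, with a median of 0.43. SRGN encodes serglycin, the proteoglycan core on which granule contents are packed, and it is also made by other blood-derived and endothelial cells. It stood at 55.4 and 42.0 units in HS and at 49.4 and 92.1 units in drug-loaded MNs, where replicate 2 was again the highest. Its log2 fold change was 0.47 (limma adjusted p 0.774). CD63, a membrane protein of granules and lysosomes found in most cells, stood at 1068 and 718 units in HS and at 1566 and 1221 units in drug-loaded MNs, a log2 difference of 0.66 (adjusted p 0.569 in limma). SLC18A2, which loads histamine into granules, stayed below the filter, at 0.734 and 0.287 units in HS and at 1.04 and 1.18 units in drug-loaded MNs. CTSG, a granule protease, was listed at 0 in all 4 libraries. The chymase gene CMA1 was not analysed here.

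The 3 lipid mediator enzymes tested (ALOX5, PTGS2 and PLA2G4A) had log2 fold changes between -0.21 and 0.20, and the groups overlapped in each. Of the transcription factors, 5 of 5 tested genes had higher values, with a median of 0.52 and 0 at an unadjusted p under 0.05. GATA2, which mast cell precursors need, stood at 35.4 and 21.0 units in HS and at 28.1 and 81.8 units in drug-loaded MNs. The libraries lay in the same order as for FCER1A. The log2 difference was 0.79 (SE 0.49, adjusted p 0.743 in limma), and it was 0.04 without drug-loaded MNs replicate 2. Endothelial cells also express GATA2, and the 5 endothelial genes summed to 191 and 189 units in HS and to 146 and 194 units in drug-loaded MNs. VWF took most of that sum, at 149 and 128 units in HS and at 83.1 and 114 units in drug-loaded MNs. Of the 5 genes, 4 had higher values in drug-loaded MNs and only VWF lower, and 4 were highest in drug-loaded MNs replicate 2. The part of endothelial cells in the GATA2 values was not tested.

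For the signals that mast cells receive and send, few genes could be read. KITLG, the stem cell factor that binds KIT, stood at 34.1 and 45.3 units in HS and at 70.8 and 48.4 units in drug-loaded MNs. The groups did not overlap, with a log2 difference of 0.56 (SE 0.28, adjusted p 0.675 in limma). Receptor and ligand thus both had higher values in the treated scars, and neither passed. The other tested ligand gene, IL13, had a log2 fold change of -0.37. HRH1, the histamine receptor of vessels and nerves, stood at 6.01 and 3.67 units in HS and at 2.89 and 3.97 units in drug-loaded MNs (log2 fold change -0.38, limma adjusted p 0.834). The groups overlapped. PTGDR, a receptor of prostaglandin D2, lay at 1.17 and 0.702 units in HS and at 2.05 and 2.64 units in drug-loaded MNs, a log2 difference of 0.79 (adjusted p 0.524 in limma). HNMT, which breaks histamine down inside cells, stood at 22.9 and 17.1 units in HS and at 41.9 and 28.4 units in drug-loaded MNs, a log2 difference of 0.77 (adjusted p 0.501 in limma). PTGDR and HNMT both separated the groups, and the higher treated library was replicate 2 for PTGDR and replicate 1 for HNMT. PTGDR passed the filter only through the treated libraries.

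**Figure D4:**
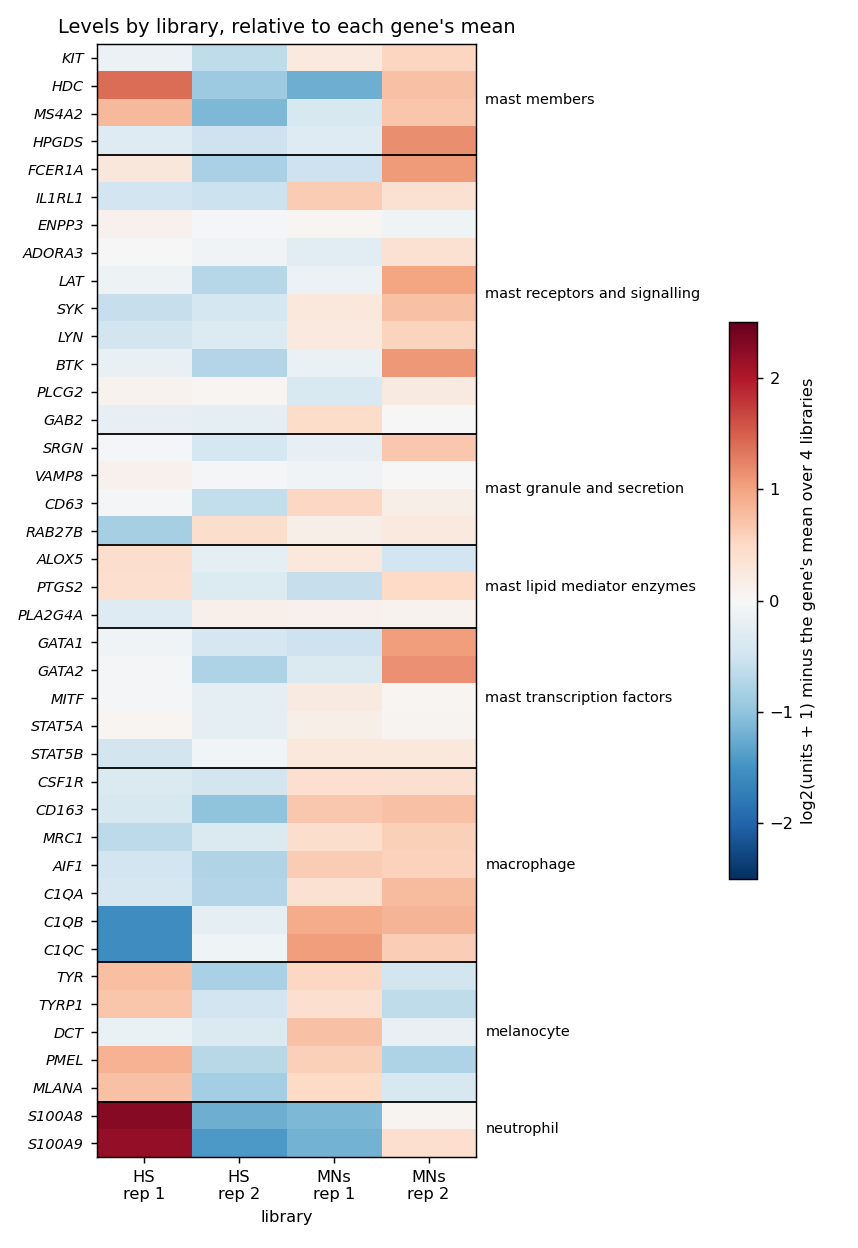
Level of each gene in each library relative to its mean over the 4 libraries (colour, log2(units + 1) minus the mean, red higher and blue lower), with rows for the mast cell genes, the receptor, granule, lipid mediator and transcription factor lists, and the macrophage, melanocyte and neutrophil markers. The macrophage rows split by group, the melanocyte rows are higher in replicate 1 than in replicate 2 of each group, and HDC, MS4A2 and FCER1A are higher in HS replicate 1 and drug-loaded MNs replicate 2.

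Drug-loaded MNs replicate 2 was the highest library for 2 of the 4 members and for 16 of the 30 other pathway genes (53.3%), against 16.9% of all tested genes. HS replicate 2 was the lowest for 3 of the 4 members and for 13 of the 30 (43.3%), against 22.7% of all genes. The other 2 members, HDC and MS4A2, had HS replicate 1 on top, which was the highest library for 18.8% of all genes. Within the receptor and signalling list 7 of 10 genes were highest in drug-loaded MNs replicate 2, and within the macrophage list 3 of 7 were.

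The genes most alike in pattern were sought by Pearson's r over the 4 libraries with the mean of the 4 members, each centred on the log2 scale. The 1552 genes compared had a symbol and differed at least 2-fold between libraries on the log2(units + 1) scale. The highest were STAP1 (r = 0.996), PTPN7 (0.986), LRRC46 (0.983), FCER1A (0.979) and CTSF (0.976). FCER1A, the alpha chain of the IgE receptor, was therefore in the leading 5. STAP1 lay at 4.37 and 1.49 units in HS and at 1.93 and 5.20 units in drug-loaded MNs, near the filter, as did PTPN7 and LRRC46. With only 4 libraries such values are a description, and 18 genes (1.16%) had an r over 0.9.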

How the data were processed

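Single cells of 4 rabbit scars were profiled by the droplet method of 10x Genomics. The authors counted reads with Cell Ranger (version 2.1.1 in the submitters' processing notes) and processed cells in Seurat. The notes name the mouse build mm10, whereas the gene identifiers are those of rabbit Ensembl genes. The deposited signal is a relative expression value per gene and library. The table is named for FPKM, yet each column sums to 10000, and how cells were merged, how doublets were handled and whether the batch correction mentioned in the methods was applied are not given in the sources used here. Of low values, 18.5% to 21.7% lay within 0.1 of a whole multiple of the smallest, so reads were not recovered, no count model was run, and the number of libraries limits the precision.

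Every column was matched to a labelled library and rescaled to a total of 1000000. The 9348 genes that averaged 1 unit or more were fitted as log2(value + 1) with limma 3.58.1 (trended eBayes) in R 4.3.3, without covariates, using two-sided p-values with Benjamini-Hochberg adjustment and a threshold of 0.05. Data were simulated for treated against untreated scars over 9348 genes, with 200 genes changed, 50 at each size. The fit recovered 18% at a true log2 change of 1, 96% at 2, and 100% at 3 and at 4. It made 176 calls, 19 of them false. The simulated noise was normal, with the spread that limma fitted by sharing across genes. That spread can understate the one between replicates of genes such as HDC and MS4A2.

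The members and gene lists were chosen with earlier results of these data known. Other list genes were named where the unadjusted p was under 0.05 or where groups did not overlap with an absolute log2 change over 1 (up to 4 per list), and FCER1A, FCER1G, CMA1, GATA2, SRGN, KITLG, HRH1 and TYR for their role. IL13, LAT, BTK, SLC18A2, CTSG, KRT10, COL1A2, CSF1R, MLANA, TYRP1, VWF and the lipid enzyme, basophil and neutrophil genes were named after seeing their values. Alternatives covered scaling, pseudocount, filter, variance trend, the replicate number as a block, and leaving out each library.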

Additional observations from a re-analysis of the deposited data

How the results depend on the processing

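None of the 4 mast cell genes passed the adjusted threshold under any of 12 alternatives. KIT kept its direction in all 12 (0.52 to 1.02). It lost its unadjusted call in 4 of them (both scalings, and replicate 2 of either group left out). HPGDS also kept its direction in all 12 (0.11 to 1.59), and its unadjusted p with all 4 libraries was 0.109 in limma. HDC turned to 0.66 without HS replicate 1 and to 0.48 without drug-loaded MNs replicate 1 (range over alternatives -1.64 to 0.66). MS4A2 turned to -0.65 without HS replicate 2 and to -0.23 without drug-loaded MNs replicate 2 (range -0.65 to 1.28). All these turns came with 1 library left out, and their cause was not tested. The median of the 4 genes lay between 0.35 under quantile normalization and 0.58 with a pseudocount of 0.1, and between -0.06 and 0.98 with 1 library left out. Where 1 library remained in a group, its spread was taken from the other group. The log2 ratio of the summed level of the 4 genes (0.33) was 0.17 under median ratio scaling and -0.02 without KIT, against a pooled SD of 0.81 between replicates.

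Over all genes 4 passed. None did with no filter, with a pseudocount of 5, after quantile normalization or with median ratio scaling (0 each, with 1048, 814, 727 and 771 at an unadjusted p under 0.05 in limma), and 1 did without the variance trend. The count ran from 0 to 75 with 1 library left out. With the replicate block it was 241, with 0 mast cell genes among them (KIT limma adjusted p 0.184, HPGDS 0.260) but 5 of 7 macrophage genes and 5 of 6 fibroblast genes. Libraries with the same number shared only that number, and across genes the correlation of same-numbered deviations was 0.22 in 2 pairs, too few to take the numbers as a pairing. The cause was not tested. The counts of other pathway genes were run under the same alternatives after seeing the data. The number with higher values lay between 17 (a minimum mean of 5, where fewer genes are tested) and 26. Depth was unknown, so what it limits was not measured.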

Other observations

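Of the pathway lists, 3 more genes are given here, chosen after their values were seen. IL13, a cytokine of mast cells and of T helper and innate lymphoid cells, stood at 24.0 and 15.1 units in HS and at 6.46 and 31.4 units in drug-loaded MNs. It differed 4.34-fold between the treated libraries on the log2(units + 1) scale, where 99.6% of tested genes differed less. LAT, the adaptor downstream of the IgE receptor and the T cell receptor, stood at 14.0 and 8.999 units in HS and at 13.8 and 31.7 units in drug-loaded MNs. BTK, a kinase of mast cells, B cells and myeloid cells, stood at 7.18 and 4.53 units in HS and at 7.29 and 18.5 units in drug-loaded MNs. None of the 3 passed in limma (adjusted p 0.648 to 0.915).

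S100A8 and S100A9 encode the calprotectin subunits. S100A8 stood at 153 and 12.6 units in HS and at 13.6 and 32.3 units in drug-loaded MNs, and S100A9 at 71.8 and 4.83 units in HS and at 6.02 and 20.1 units in drug-loaded MNs. In both genes HS replicate 1 was highest and HS replicate 2 lowest. The 6 fibroblast genes analysed all had higher values in drug-loaded MNs without overlap (against 26.6% of all genes), with a median log2 fold change of 1.12, among them DPT (1.34), COL3A1 (1.46), COL1A1 (1.39) and DCN (0.90). None of these 4 passed in limma (adjusted p 0.257 to 0.417). With the replicate number as a block 5 of the 6 did, as did 241 of all 9348 tested genes. The keratinocyte list had a median of -0.24, with overlap in all 6 genes. The Schwann cell list had a median of 0.68, with overlap in all 4 genes, and the median was -0.07 without HS replicate 1. Of these genes, S100B had a log2 fold change of 0.73, yet its mean was 214 units in HS and 151 units in drug-loaded MNs. Of the T cell list only CD2 was tested (log2 fold change 1.08). It averaged 0.897 units in HS and passed the filter only through the treated libraries. For CDH5 of the endothelial list the log2 difference was 0.92 (adjusted p 0.445 in limma).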
